A study of Rattus norvegicus with 14 samples.

Results

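Transcripts of the basement membrane were followed in smooth muscle cells cultured from rat aorta. The set was chosen by gene symbol and held 10 genes, of which 7 had a row among the 17312 genes of the deposited tables: Col4a1, Lama4, Lama5, Lamb2, Lamc1, Nid2 and Sparc. Lamb1, Nid1 and Hspg2 were not analysed here. All 7 passed the filter on low values and were among the 10133 genes tested.

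The 14 libraries of polyadenylated RNA came from commercially obtained cells kept without serum for 24 h, a step that all groups share. The unstimulated group (0 h) held 2 libraries and had neither agent. The PDGF 2 h and PDGF 24 h groups, of 3 libraries each, received platelet-derived growth factor at 925 ng/ml, and the JQ1 plus PDGF 2 h and JQ1 plus PDGF 24 h groups, also of 3 libraries each, received 500 nM JQ1 for 3 h before the same PDGF. PDGF is a mitogen under which smooth muscle cells leave the contractile state, and JQ1 displaces BET bromodomain proteins from acetylated histones. Unstimulated cells at later times and JQ1 without PDGF were not analysed here, so PDGF and time in culture cannot be told apart. Sample titles carry the letters A to D without JQ1 and E to H with it, so JQ1 and what these letters stand for cannot be told apart. No strain, age, passage or number of animals is given in the labels, and nothing there says that replicates were separate cultures, so the p-values may measure technical spread only. In such bulk libraries, fewer cells of a type and less RNA per cell cannot be told apart.

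The basement membrane is a thin sheet of extracellular matrix that surrounds each smooth muscle cell and underlies the endothelium. Laminins, trimers of an alpha, a beta and a gamma chain, polymerise at the cell surface, and type IV collagen forms a covalently crosslinked network beside them. Nidogens and the heparan sulphate proteoglycan perlecan (Hspg2) link both networks, and Sparc is a secreted collagen-binding glycoprotein that binds type IV collagen. In the vessel wall this coat, and laminin in particular, is known to favour the contractile state of smooth muscle cells.

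Levels are given as normalised FPKM (fragments per kilobase scaled to library size, adjusted by the authors by a method not stated), with the SD. They can be compared between genes because they are per length. This is called the spike-in scale because spike-in RNAs were added, but their part in the adjustment is not stated. Differences are log2 of (normalised FPKM + 1) with the SE of 1 limma model over all 5 groups and a Benjamini-Hochberg adjusted p over all genes tested. A gene passed, and is said to have risen or fallen, at an adjusted p under 0.05. The authors' adjustment moved the levels of a library by amounts that differed between genes. In PDGF 2 h replicate 1, for example, it took Lama4 from 4.66 to 5.88 and Sparc from 4051 to 3712. Each difference was therefore also taken on a median-centred scale, where unnormalised FPKM are divided by size factors. Over all genes tested the median difference on the spike-in scale was 0.01 after 2 h of PDGF and 0.41 after 24 h, 0.39 between both PDGF times, and -0.29 (2 h) and -0.48 (24 h) for JQ1. After centring these medians lay between -0.05 and 0.05.

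Depth is unknown, since FPKM keep no read totals. The libraries had 9901 to 11503 genes above 0, and spike-ins took 1.65 to 2.78% of the FPKM. All 8 smooth muscle markers were tested. Acta2 and 7 others summed to 8806 to 10657 normalised FPKM at 0 h and 1724 to 1960 at 24 h of PDGF. With JQ1 plus PDGF at 24 h the sum was 328 to 483. Acta2 and Tagln, present in every group, made up most of the sum at 0 h (means 5251 and 4045). Des had a mean of 0.41 at 0 h and 1.52 at 24 h of PDGF, so it did not fall with the sum. Myh11 (0.38), Lmod1 (0.81) and Mylk (0.88) were below 1 with JQ1 plus PDGF at 24 h. Of markers of other cell types, 1 of 8 endothelial (Cdh5), 1 of 5 fibroblast (Dpt), 2 of 5 leukocyte (Ptprc and Cd3e), 1 of 4 Schwann (Sox10) and 1 of 4 epithelial (Cdh1) were listed at 0 in every library of the unnormalised table. Others of these lists were present at 0 h, among them Lum (113 normalised FPKM), Eng (44.8), Cd14 (14.7), Krt8 (11.2) and Pdgfra (9.46).

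Bases upstream of 4 members are shown because their time courses differ: Lamc1 rose early, Lama4 rose late, Col4a1 fell late and Sparc fell with JQ1. The sequences are the 250 bases before the RefSeq start site on build GRCr8, which is not the build of the deposited tables, and the start site used in these cells is unknown. Capitals mark matches, on either strand, to any of 6 motifs: AP-1 (TGANTCA), the CArG box, the GC box (GGGCGG), the TATA box (TATAAA), the E box (CACGTG) and an ETS motif (CCGGAA).
Lamc1 (chr13:68051987-68052236, minus strand): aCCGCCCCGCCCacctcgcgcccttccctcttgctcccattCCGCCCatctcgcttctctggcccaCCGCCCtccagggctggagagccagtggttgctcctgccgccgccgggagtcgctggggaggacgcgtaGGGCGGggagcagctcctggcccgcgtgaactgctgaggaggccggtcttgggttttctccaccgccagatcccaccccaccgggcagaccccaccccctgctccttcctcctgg
Lama4 (chr20:43946648-43946897, plus strand): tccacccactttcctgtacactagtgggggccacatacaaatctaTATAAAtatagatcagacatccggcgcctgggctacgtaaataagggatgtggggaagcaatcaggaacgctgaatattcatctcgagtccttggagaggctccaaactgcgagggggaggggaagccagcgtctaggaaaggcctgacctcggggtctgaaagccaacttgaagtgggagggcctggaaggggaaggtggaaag
Col4a1 (chr16:84885347-84885596, plus strand): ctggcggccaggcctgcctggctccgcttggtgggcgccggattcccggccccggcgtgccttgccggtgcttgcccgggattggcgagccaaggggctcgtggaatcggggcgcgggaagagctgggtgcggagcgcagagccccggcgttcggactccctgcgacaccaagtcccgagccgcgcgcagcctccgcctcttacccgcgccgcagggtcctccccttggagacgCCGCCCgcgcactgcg
Sparc (chr10:40038817-40039066, minus strand): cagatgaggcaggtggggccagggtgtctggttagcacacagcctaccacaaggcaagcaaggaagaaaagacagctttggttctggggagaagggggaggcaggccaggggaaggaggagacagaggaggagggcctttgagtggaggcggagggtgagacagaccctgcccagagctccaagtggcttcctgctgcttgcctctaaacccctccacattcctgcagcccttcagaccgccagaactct

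The capitals in Lamc1 are 5 GC boxes, of which the 2 farthest from the start share a base, and the single capital stretch in Col4a1 is also a GC box. Lama4 holds a TATA box motif 205 to 200 bases before the start, and Sparc holds none of the 6 motifs in this window. RefSeq windows were found for 8 of the 10 genes, all but Lamb2 and Nid2. A GC box stood in 6 of these 8, against 30.5% of 33469 windows of the same length. They were Col4a1, Lama5 and Lamc1, together with Lamb1, Nid1 and Hspg2, whose levels were not analysed here. A TATA box stood in 1 of 8 (Lama4, 12.9% of all windows) and an ETS motif in 1 of 8 (Nid1, 12.6%). An AP-1 motif (6.34% of all windows), a CArG box (1.5%) and an E box (5.59%) stood in none of the 8. The Col4a1 window was 75.2% G and C, that of Lamc1 71.2%, that of Sparc 60% and that of Lama4 53.2%, against a median of 51.2% over all windows. These matches describe the letters only.

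At 0 h the members differed widely in level. Sparc stood at 4015 ± 726 (SD, n = 2), the 9th highest group mean of all 17312 genes. Col4a1, the alpha-1 chain of type IV collagen, followed at 212 ± 16.8 (SD, n = 2), and Lamc1, the gamma-1 chain found in most laminins, stood at 89.9 ± 9.12 (SD, n = 2). Lamb2 at 76.6 ± 2.31 and Lama5 at 73.7 ± 8.66 (SD, n = 2 each) had overlapping ranges and were neighbours in the order, while Nid2 stood at 51.5 ± 6.34. Lama4 was lowest at 3.96 ± 0.30 (SD, n = 2), the 7995th group mean. The plot of levels by library shows all 7 genes.

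**Figure D1:**
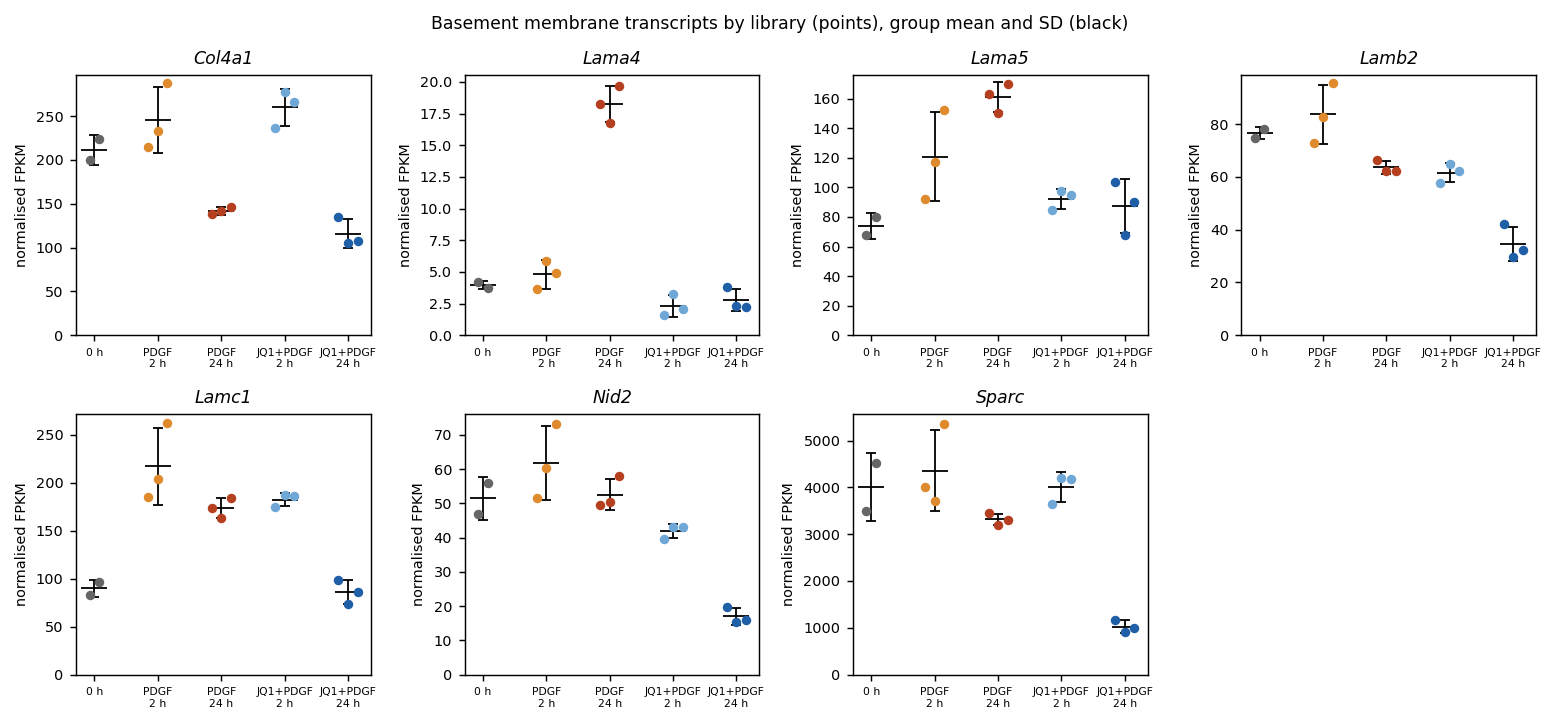
Normalised FPKM (y axes, linear and starting at 0, 1 panel per gene) of the 7 basement membrane genes in each library (points), with the group mean and SD in black, for unstimulated cells (n = 2) and the 4 treated groups (n = 3 each). Lama4 stands apart at PDGF 24 h (16.8 to 19.6), and the JQ1 plus PDGF 24 h libraries are lowest for Sparc and Nid2.

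After 2 h of PDGF, 2 laminin chains rose and the other 5 genes did not pass. The 2 of 7 stand against 17.7% of all genes tested that rose and 12.7% that fell (20.4% and 19.4% when centred, where the same 2 genes rose). Lamc1 was 83.4 and 96.3 at 0 h and 185, 204 and 262 after PDGF, so that every stimulated library was above both unstimulated ones. Its difference was 1.25 ± 0.15 (limma, adjusted p = 1.35e-05), and 1.18 ± 0.07 on the median-centred scale. The alpha-5 chain gene Lama5 went from 67.6 and 79.8 to 92.2, 117 and 152, again without overlap, a difference of 0.68 ± 0.19 (adjusted p = 0.0147). This call rested on few libraries: the adjusted p was 0.143 without unstimulated replicate 0 and 0.0557 without PDGF 2 h replicate 2, and 1 gene then passed. Without either of those libraries Lamc1 still passed. Col4a1 (0.20 ± 0.14), Lama4 (0.21 ± 0.26), Lamb2 (0.12 ± 0.15), Nid2 (0.25 ± 0.16) and Sparc (0.11 ± 0.18) had overlapping groups. PDGF 2 h replicate 2 was the highest of its group for 6 of these 7 genes, all but Lama4. In unnormalised FPKM it was highest for Lama4 too (4.71 against 4.03 and 4.66). The authors' normalisation raised this library by a median of 0.20 (log2), against -0.11 and -0.01 for replicates 0 and 1.

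After 24 h of PDGF the chains diverged, with the laminin alpha chains and Lamc1 above and Col4a1 below 0 h. Of the 7 genes, 3 rose and 1 fell, against 37.7% and 4.85% of all genes tested, so that the count that rose was close to this background. Lama4, whose alpha-4 chain is typical of endothelial and mesenchymal basement membranes, was 4.17 and 3.75 at 0 h and 18.3, 16.8 and 19.6 at 24 h. These groups lay far apart, with a difference of 1.95 ± 0.26 (limma, adjusted p = 3.19e-05). Lama5 reached 163, 150 and 170 (1.12 ± 0.19, adjusted p = 0.000318), and Lamc1 stood at 173, 163 and 184 (0.94 ± 0.15, adjusted p = 0.000185). Both were above both unstimulated libraries in all 3 libraries. When centred the rises were smaller, at 1.55 ± 0.19 for Lama4, 0.67 ± 0.12 for Lama5 and 0.49 ± 0.07 for Lamc1.

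Col4a1 fell from 200 and 223 to 138, 141 and 146 at 24 h, without overlap. The difference was -0.57 ± 0.14 (limma, adjusted p = 0.00465), and it missed the threshold without unstimulated replicate 1 (adjusted p = 0.0523). On the median-centred scale it was -1.03 ± 0.06. The other 3 genes were not called on the spike-in scale: Lamb2, the beta-2 chain, at 63.6 ± 2.32 (-0.26 ± 0.15, adjusted p = 0.16), Sparc at 3316 ± 120 (-0.26 ± 0.18, adjusted p = 0.248) and Nid2, which encodes nidogen-2, at 52.6 ± 4.6 (0.03 ± 0.16, adjusted p = 0.89). When centred all 3 fell, by 0.72, 0.76 and 0.42 in that order, so that 3 of the 7 genes were higher and 4 lower (14.8% and 13.4% of all genes on that scale). The sign of Nid2 therefore depends on the scale.

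Comparing 24 with 2 h of PDGF gave a rise of Lama4, the late laminin chain, but none of Lamc1, the early one. Lama4 rose by 1.75 ± 0.23 (limma, adjusted p = 2.01e-05) and Col4a1 fell by 0.78 (SE 0.13, adjusted p = 0.000126). Lamc1 had a difference of -0.31 ± 0.14 (adjusted p = 0.0648), although its groups did not overlap (185 to 262 against 163 to 184), and of -0.70 ± 0.06 on the median-centred scale, where it passed (adjusted p = 1.18e-06). In all 4 of 7 passed, 2 in each direction, against 44.5% of all genes higher and 11.8% lower. When centred, 1 was higher and 5 lower (26.6% and 25.8% of all genes). The other calls were Lama5 (0.44 ± 0.17, adjusted p = 0.0385, groups overlapping at 150 to 170 against 92.2 to 152) and Lamb2 (-0.38 ± 0.13, adjusted p = 0.022). Both were lost without PDGF 24 h replicate 2 (adjusted p = 0.104 and 0.0608), which left 2 calls. Lama5 was also lost without PDGF 2 h replicate 0 (0.201), PDGF 2 h replicate 1 (0.0685) or PDGF 24 h replicate 0 (0.085), and stood at 0.05 ± 0.10 when centred. It was lost too with no filter (0.0694) and with no mean trend (0.0665). Lamb2 was lost without PDGF 2 h replicate 2 (0.0952) or PDGF 24 h replicate 1 (0.0585), but was -0.77 ± 0.07 when centred. With PDGF 2 h replicate 1 and PDGF 24 h replicate 0 both left out, Lama5 (0.122) and Lamb2 (0.0557) did not pass. On the spike-in scale Sparc (-0.38 ± 0.16, limma, adjusted p = 0.0575) and Nid2 (-0.22 ± 0.14, adjusted p = 0.203) did not pass. When centred they were -0.75 ± 0.05 and -0.61 ± 0.08, and both passed.

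With JQ1, fewer members passed as lower at 2 h than at 24 h, which also held for all genes tested. At 2 h, 3 of the 7 genes were lower than with PDGF alone and none was higher. Of all genes, 34% were lower and 7.24% higher, so that the count of members was close to this background. Nid2 was 39.5, 43.1 and 43.2 with JQ1 against 51.7, 60.3 and 73.2 without (-0.53 ± 0.14, limma, adjusted p = 0.00681). Lama4 was 1.57, 3.25 and 2.06 against 3.64, 5.88 and 4.88 (-0.83 ± 0.23, adjusted p = 0.00959; 0.0525 when only the groups compared were fitted). Lamb2 was 57.8, 64.7 and 62.4 against 72.9, 82.8 and 95.5 (-0.43 ± 0.13, adjusted p = 0.0169), and was lost without PDGF 2 h replicate 2 (0.0761) or JQ1 plus PDGF 2 h replicate 0 (0.0641). In each case the JQ1 libraries lay below all those with PDGF alone.

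The 2 h result depended on the scale. When centred, 2 genes were higher and 1 lower (20.1% and 21.5% of all genes). Lama4 remained lower there (-0.58 ± 0.17), Lamb2 (-0.10 ± 0.07) and Nid2 (-0.21 ± 0.08, adjusted p = 0.0511) did not pass, and Col4a1 (0.43 ± 0.06) and Sparc (0.28 ± 0.05) were higher. Their spike-in values were 0.09 ± 0.13 and -0.10 ± 0.16. The early rise of Lamc1 was present with JQ1: its libraries stood at 175, 187 and 186, against 83.4 and 96.3 at 0 h (1.02 ± 0.15, adjusted p = 6.92e-05). They overlapped those with PDGF alone (-0.23 ± 0.14, adjusted p = 0.179; 0.10 ± 0.06 when centred). Lama5 stood at 84.8, 97.4 and 94.6 with JQ1, overlapping the PDGF libraries (-0.36 ± 0.17, adjusted p = 0.111). It passed as lower without PDGF 2 h replicate 0 (0.0189).

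At 24 h, 6 of the 7 genes were lower with JQ1 plus PDGF than with PDGF alone, and these 6 calls were kept in each alternative run. The background was 48.5% of all genes lower and 4.61% higher. When centred it was 25.8% lower and 23.1% higher, and the same 6 genes were lower. Sparc went from 3444, 3207 and 3297 to 1169, 915 and 993, a wide gap, with a difference of -1.70 ± 0.16 (limma, adjusted p = 3.94e-07). Nid2 went from 49.5, 50.3 and 57.9 to 19.7, 15.3 and 16, also without overlap (-1.58 ± 0.14, adjusted p = 2.19e-07). When centred these were -1.19 ± 0.05 and -1.07 ± 0.08.

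The 4 laminin genes among the 7 members were each lower with JQ1 at 24 h. Lama4 stood at 3.81, 2.33 and 2.19 with JQ1 against 16.8 to 19.6 without, the biggest difference among the 7 (-2.37 ± 0.23, limma, adjusted p = 5.41e-07). Against 0 h, Lama4 with JQ1 differed by -0.42 ± 0.26 (adjusted p = 0.217), and the groups overlapped. Lamc1 stood at 98.7, 73.2 and 86.2 with JQ1 against 163 to 184 without (-1.01 ± 0.14, adjusted p = 1.47e-05), again overlapping the unstimulated libraries (-0.07 ± 0.15, adjusted p = 0.758). Lama5, at 104, 67.6 and 90.2, was lower than with PDGF alone by -0.90 ± 0.17 (adjusted p = 0.000415) and overlapped 0 h (0.22 ± 0.19, adjusted p = 0.382). Lamb2 stood at 42, 29.6 and 32.2 (-0.87 ± 0.13, adjusted p = 4.84e-05). After centring these 4 were lower by 1.87, 0.50, 0.39 and 0.36 for Lama4, Lamc1, Lama5 and Lamb2, and passed there too.

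Col4a1 stood at 135, 105 and 108 with JQ1 at 24 h against 138, 141 and 146 without, and although the groups did not overlap the difference of -0.30 ± 0.13 did not pass (limma, adjusted p = 0.0623). It passed as lower without PDGF 2 h replicate 2 (0.0349) or JQ1 plus PDGF 24 h replicate 0 (0.0128). On the median-centred scale Col4a1 was instead higher with JQ1 (0.21 ± 0.06, adjusted p = 0.0077), so its direction depends on the scale.

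The difference between the JQ1 effect at 24 h and at 2 h was tested itself. It passed, with a negative sign, for 4 of the 7 genes, against 17.5% of all genes tested that passed below 0 and 4.82% that passed above 0: Sparc at -1.59 ± 0.23, Lama4 at -1.54 ± 0.33, Nid2 at -1.04 ± 0.20 and Lamc1 at -0.78 ± 0.19. Col4a1 (-0.39 ± 0.18), Lama5 (-0.54 ± 0.24) and Lamb2 (-0.45 ± 0.19) did not pass, but all 7 did without PDGF 2 h replicate 2. The same 4 genes passed when centred (16.4% of all genes passed below 0 and 13.5% above 0).

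**Figure D2:**
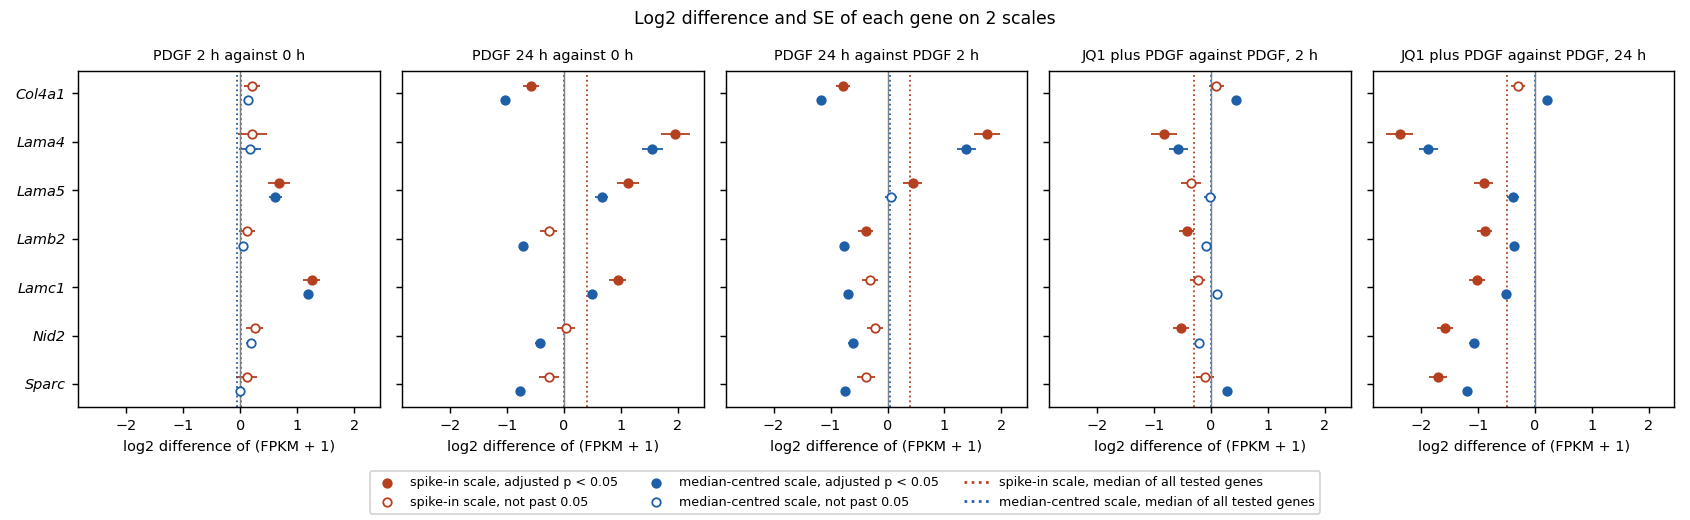
Log2 difference of (FPKM + 1) and SE (x axes) of each gene (rows) in 5 comparisons (panels), on the spike-in scale in red and the median-centred scale in blue, with filled points past an adjusted p of 0.05 and dotted lines at the median of all genes tested. In the panel of JQ1 at 24 h, 6 genes lie left of 0 on both scales and Col4a1 lies on opposite sides.

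Against unstimulated cells, JQ1 plus PDGF at 24 h left 4 of 7 genes lower and 0 higher (23.4% and 17.6% of all genes). Sparc differed by -1.96 ± 0.18 and Nid2 by -1.55 ± 0.16, while Lamb2 differed by -1.14 ± 0.15 and Col4a1 by -0.87 ± 0.14. Their adjusted p in limma were 3.26e-07, 1.1e-06, 1.43e-05 and 0.000147. When centred the 4 values were -1.96, -1.49, -1.08 and -0.82, all past the threshold (24.8% of all genes lower, 25.1% higher). Within the JQ1 groups, 5 of 7 genes were lower at 24 h than at 2 h (17.4% of all genes lower, 29% higher; 6 of 7 when centred, against 27.4% and 25.3%), led by Sparc at -1.97 ± 0.16 and Nid2 at -1.26 ± 0.14. Lama4 (0.20 ± 0.23) and Lama5 (-0.10 ± 0.17) did not pass. At 2 h, JQ1 plus PDGF against 0 h gave 1 call, that of Lamc1, against 13.2% of all genes higher and 33.7% lower. After centring, Col4a1 (0.56), Lama5 (0.59) and Sparc (0.26) also rose there, against 25.6% of all genes higher and 27.1% lower. The count was 2 without PDGF 2 h replicate 0 or 1 or JQ1 plus PDGF 2 h replicate 1, with Lama4 then lower, and 3 without JQ1 plus PDGF 24 h replicate 0, with Lama4 and Lamb2 lower. These comparisons share the unstimulated or JQ1 libraries with the ones above.

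Ratios of 2 genes within a library depend little on the scaling and were taken on unnormalised FPKM. Lama4 amounted to 5.13 ± 0.48% of Lama5 at 0 h (SD, n = 2), 3.86 ± 0.28% after 2 h and 11.1 ± 0.63% after 24 h of PDGF (SD, n = 3 each). With JQ1 plus PDGF the share was 2.35 ± 0.62% at 2 h and 3.2 ± 0.59% at 24 h. The PDGF 24 h libraries, at 10.5 to 11.7%, stood above every other library. Exact two-sided permutation tests gave p = 0.1 between both PDGF times and for the late JQ1 comparison, the smallest p that 3 against 3 libraries allow, and no p adjusted over the 25 ratio tests was below 0.208.

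Lamb2, a chain that joins Lamc1 in laminin trimers, and Nid2 were set against Lamc1 in the same way. Lamb2 amounted to 85.4 ± 4.89% of Lamc1 at 0 h (SD, n = 2) and to 38.8 ± 1.18% after 2 h and 36.6 ± 2.47% after 24 h of PDGF (SD, n = 3 each). With JQ1 it stood at 33.7 ± 0.80% and 40.2 ± 2.49% at these times. Nid2, whose product is of the family that binds the gamma-1 chain, went from 57 ± 2.6% of Lamc1 at 0 h to 28.5 ± 0.52% and 30.1 ± 1.68% with PDGF, and to 22.9 ± 0.36% and 19.8 ± 0.95% with JQ1 plus PDGF. Col4a1 was 237 ± 9% of Lamc1 at 0 h, 81.8 ± 4.16% after 24 h of PDGF and 135 ± 9.33% with JQ1 at 24 h. For 3 against 2 libraries the smallest two-sided exact permutation p is 0.2, which each of these ratios reached for PDGF against 0 h at both times. The ratio of Sparc to Col4a1 was 19.3 ± 0.61 at 0 h and 23.3 ± 1.12 at 24 h of PDGF, but 8.78 ± 0.15 with JQ1 plus PDGF at 24 h (exact permutation p = 0.1 for the last pair).

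**Figure D3:**
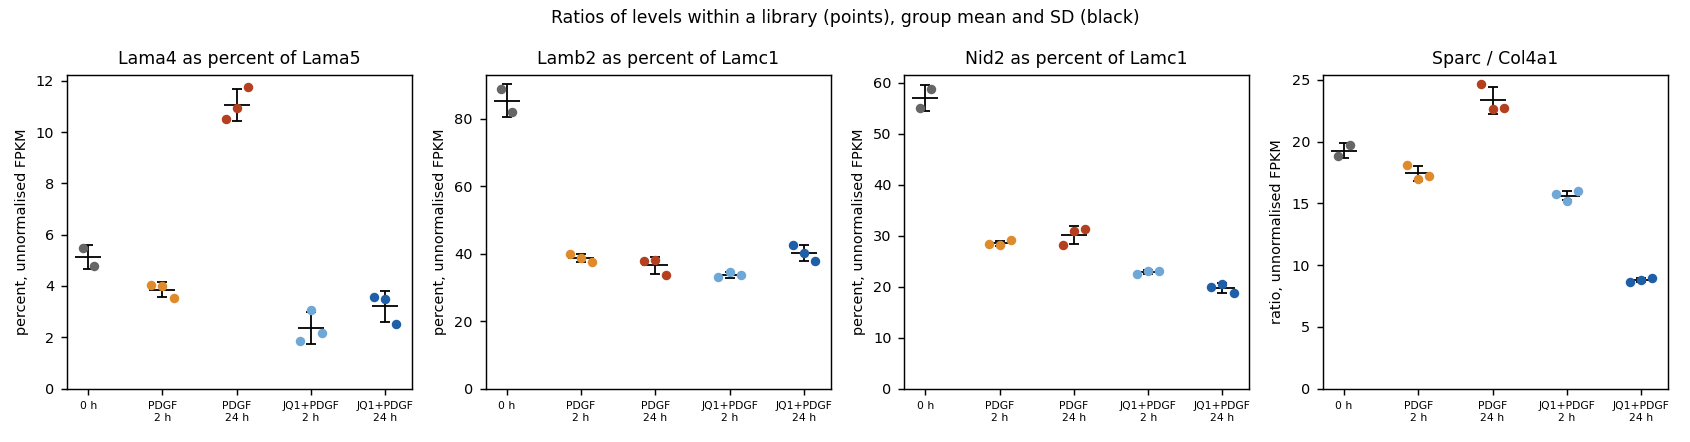
Ratios of unnormalised FPKM within each library (points; y axes linear from 0, in percent except for Sparc / Col4a1), with group mean and SD in black, by group (n = 2 at 0 h, n = 3 otherwise). Lama4 relative to Lama5 is highest at PDGF 24 h (10.5 to 11.7%), Lamb2 and Nid2 relative to Lamc1 are highest at 0 h, and Sparc / Col4a1 is lowest with JQ1 plus PDGF at 24 h.

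Across the 14 libraries, on the median-centred log2 scale, Nid2 and Sparc had a Pearson r of 0.96, Lamb2 and Sparc of 0.95, and Lamb2 and Nid2 of 0.93. For Lama4, r lay between -0.60 (Col4a1) and 0.42 (Lama5) on this scale, but on the spike-in scale it was 0.81 with Lama5, 0.46 with Nid2, 0.32 with Lamc1 and -0.27 with Col4a1. Beyond the members, the most similar genes were Fbln5 (0.993), Acta2 (0.992) and Slit3 (0.99) for Sparc, Tpm4 (0.989), Rhoj (0.988) and Eln (0.988) for Nid2, and Casq2, Myl9 and Mybl2 (each 0.991) for Lamb2. For Lamc1 they were Loxl4 (0.996), Il1rl1 (0.988) and Nfatc1 (0.985), for Col4a1 Actn4, Pkdcc and Fgfr3 (each 0.991), for Lama4 Abcg1 (0.972), Scara3 (0.972) and Ryr2 (0.967), and for Lama5 Gpc1 (0.886) and Gprc5b (0.876). These values are descriptions: the libraries form 5 groups, and the points share treatment and time.

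Other basement membrane components were counted in the same way. Of 23 listed genes 16 had a row and 10 were tested. After 2 h of PDGF 2 rose and 0 fell, against 17.7% and 12.7% of all genes: Smoc2, whose product is a relative of Sparc (0.83 ± 0.21), and Col18a1 (0.74 ± 0.16). When centred, 2 rose and 1 fell (20.4% and 19.4% of all genes). At 24 h of PDGF 5 rose and 2 fell, against 37.7% and 4.85% of all genes (median 0.45, against 0.41 for all genes). Col18a1, whose product releases endostatin, went from 159 ± 9.63 (SD, n = 2) to 1405 ± 75.5 (SD, n = 3), and rose by 3.14 ± 0.16 in limma (adjusted p = 1.59e-09). The multiplexin collagen gene Col15a1 (2.16 ± 0.29) and Smoc2 (2.44 ± 0.21) also rose, while Tinagl1 fell by 1.94 (SE 0.12). Col15a1 went from 0.10 ± 0.01 at 0 h to 3.96 ± 0.79 at 24 h. It passed the filter only through libraries with PDGF alone, so its call was partly set by the filter. Centring changed the counts at 24 h to 4 higher and 4 lower (14.8% and 13.4% of all genes).

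With JQ1, 4 of these 10 genes were lower at 2 h and 9 at 24 h, with 0 higher at either time. Of all genes, 34% were lower at 2 h and 48.5% at 24 h, so that the count at 2 h was close to this background (median of the list -1.70 at 24 h, against -0.48 for all genes). When centred, 3 were lower and 1 higher at 2 h, and 8 were lower and 0 higher at 24 h (21.5% and 25.8% of all genes lower). At 24 h Smoc2 was 1.68 ± 0.46 with JQ1 against 40.9 ± 5.36 without (SD, n = 3 each; -3.97 ± 0.19), Col18a1 differed by -2.14 ± 0.14 and Col15a1 by -2.11 ± 0.26. With JQ1 at 24 h Col15a1 had a mean of 0.13, below the filter, so the same limit holds for its difference.

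**Figure D4:**
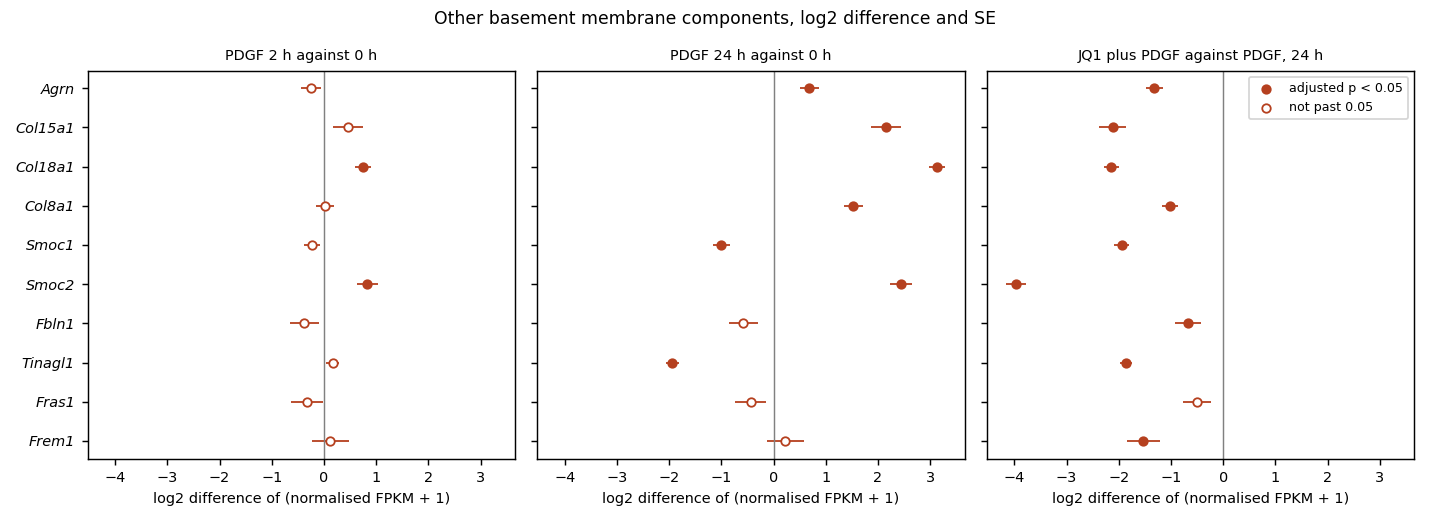
Log2 difference of (normalised FPKM + 1) and SE (x axes) of the 10 tested genes of the wider basement membrane list (rows) in 3 comparisons (panels), with filled points past an adjusted p of 0.05. Col18a1, Smoc2 and Col15a1 lie at 2.16 or above for PDGF at 24 h, and 9 of the 10 genes were lower with JQ1 at 24 h.

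Of 12 tested receptors for the basement membrane, 4 rose and 0 fell at 2 h of PDGF (17.7% and 12.7% of all genes), with the heparan sulphate proteoglycan gene Sdc4 at 2.79 ± 0.13 and the laminin-binding integrin gene Itga7 at 0.95 ± 0.16. At 24 h 8 rose and 1 fell, against 37.7% and 4.85% of all genes (4 and 2 when centred, against 14.8% and 13.4%). Itga7 reached 361 ± 15.6 (SD, n = 3) from 47.2 ± 5.8 (SD, n = 2), whereas Bcam, which encodes a receptor for the alpha-5 laminin chain, fell by 2.44 (SE 0.20). With JQ1 at 24 h 10 were lower and 2 higher, against 48.5% and 4.61% of all genes (6 and 2 when centred, against 25.8% and 23.1%). Among those lower were Itga7 at 56.2 ± 8.25 (SD, n = 3; -2.67 ± 0.14) and Sdc3 at -2.75 ± 0.13. At 2 h with JQ1 7 were lower and 2 higher, against 34% and 7.24% of all genes (5 and 3 when centred, against 21.5% and 20.1%).

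Of 15 tested genes for collagen folding and crosslinking, 4 rose and 0 fell at 2 h of PDGF, against 17.7% and 12.7% of all genes. At 24 h 8 rose and 2 fell, against 37.7% and 4.85% of all genes (3 and 3 when centred, against 14.8% and 13.4%). With JQ1 at 24 h 10 were lower and 1 higher, against 48.5% and 4.61% (9 and 4 when centred, against 25.8% and 23.1%). P4ha3, a prolyl 4-hydroxylase subunit gene, fell by 2.17 (SE 0.17) with PDGF at 24 h. With JQ1 at 24 h it decreased by 2.89 (SE 0.15) against PDGF alone, whereas Pxdn, the peroxidase that crosslinks type IV collagen, decreased by 1.39 (SE 0.14) and the lysyl hydroxylase gene Plod1 by 1.31 (SE 0.14). Of 14 tested heparan sulphate genes, 2 rose and 2 fell at 2 h of PDGF and 6 rose and 2 fell at 24 h (4 and 2 when centred). Of all genes, 17.7% rose and 12.7% fell at 2 h, and 37.7% and 4.85% at 24 h (14.8% and 13.4% when centred). Only the shares that rose were near these at both times on the spike-in scale. With JQ1 at 24 h 9 were lower and 1 higher, against 48.5% and 4.61% of all genes (7 and 3 when centred, against 25.8% and 23.1%). The sulphatase gene Sulf2 showed the biggest of these JQ1 differences (-3.23 ± 0.16).

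Among 16 tested proteases and inhibitors that act on basement membrane, 5 rose and 1 fell at 2 h of PDGF, against 17.7% and 12.7% of all genes. At 24 h 11 rose and 2 fell, against 37.7% and 4.85% (7 and 3 of 14 when centred, against 14.8% and 13.4%). With JQ1 at 24 h, 11 were lower and 2 higher, against 48.5% and 4.61% (9 and 4 of 14 when centred, against 25.8% and 23.1%). Mmp2, a gelatinase that cleaves type IV collagen, stood at 394 ± 25.9 with PDGF at 24 h and at 20.5 ± 1.5 with JQ1 plus PDGF (SD, n = 3 each; -4.20 ± 0.13, limma, adjusted p = 2.44e-12). Mmp14, the membrane-bound activator of Mmp2, was lower by -2.18 ± 0.12, and the matrix-bound inhibitor gene Timp3 by -2.09 ± 0.15. With PDGF, Plat, which encodes tissue plasminogen activator, rose by 3.38 ± 0.13 at 2 h and 3.12 ± 0.13 at 24 h.

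Summed levels of markers of other cells differed between the groups, mostly through 1 gene a list (Eng, Lum, Cd14 and Krt8). An exception was the fibroblast sum at 24 h of PDGF, where Lum was almost the same as at 0 h. The 8 endothelial markers, of which 3 were tested, summed to 46.9 to 52.3 normalised FPKM at 0 h, 129 to 156 at 24 h of PDGF and 27.1 to 34.4 with JQ1 plus PDGF at 24 h, and all 3 tested rose with PDGF at 24 h (2 when centred). The 5 fibroblast markers with a row summed to 121 to 128, 132 to 150 and 5.54 to 7.51 in the same groups. The 5 leukocyte markers summed to 13.8 to 18, 50.1 to 72.7 and 8.01 to 18.3, and the 4 epithelial markers to 10.6 to 12.5, 31.7 to 36.8 and 1.98 to 2.69. Single markers did not all follow their sum. Lum stood at 113 at 0 h and 112 at 24 h of PDGF, where 1 of 3 tested fibroblast markers (Pdgfra), 1 of 2 leukocyte markers (Cd14) and 1 of 3 epithelial markers (Krt8) passed as higher. With JQ1 at 24 h 2 of 3 endothelial, 3 of 3 fibroblast, 1 of 2 leukocyte and 1 of 3 epithelial markers were lower, while Cd68 rose from 0.63 to 7.77 and Egfl7 stood at 9.97 without and 9.18 with JQ1. At 2 h the endothelial sum was 45.8 to 65.2 with PDGF and 20.6 to 27.9 with JQ1 plus PDGF. The part of these genes in the results for Lama4 and the other members was not tested.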

How the data were processed

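The submitters' processing notes name HISAT, Cufflinks 2.0.0 and build rn6. For the annotation and the normalisation method, the sources used here give nothing. The authors deposited FPKM, unnormalised and normalised, for 17312 genes and 92 spike-ins, from 40-base reads. Columns were grouped by name. They end in digits and the sample titles in letters, so a library goes by its group and that digit.

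Genes at 1 normalised FPKM or more in at least 2 libraries were tested with limma 3.58.1 in R 4.3.3 on log2(value + 1), in 1 model over 5 groups with 9 residual degrees of freedom and a mean trend. This scale understates the change of low genes. FPKM keep no read counts, and no count model was fitted. The code was tested on simulated data. Ratios were tested with scipy 1.17.1. All 10 members were considered. From each other list, genes were named among the 4 with the biggest differences past the threshold in a comparison, and for likeness the 3 highest correlations. A few genes under these rules are not reported here. Members and lists were chosen with earlier results of these data known. Alternatives were the median-centred scale (9980 genes tested), a pseudocount of 0.1, no filter, only the groups compared, no mean trend, PDGF 2 h replicate 1 and PDGF 24 h replicate 0 both left out, and each library left out.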

Additional observations from a re-analysis of the deposited data

Results flagged for a closer look

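The effect of JQ1 differed between 24 h and 2 h of PDGF for 4 of the 7 genes, by the interaction term of the limma model with Benjamini-Hochberg adjustment over all genes tested. For this term, 17.5% of all genes tested passed below 0 and 4.82% above 0 (16.4% and 13.5% when centred). The log2 difference between the effects was -1.54 ± 0.33 for Lama4 (adjusted p = 0.00322), -0.78 ± 0.19 for Lamc1 (adjusted p = 0.00861), -1.04 ± 0.20 for Nid2 (adjusted p = 0.00151) and -1.59 ± 0.23 for Sparc (adjusted p = 0.00014). All 3 libraries with JQ1 lay below all 3 without it at 24 h for each of these genes. At that time 48.5% of all genes tested passed as lower with JQ1. The share of all genes without overlap is not reported here.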

How the results depend on the processing

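Of 1260 values (63 gene differences in 20 settings), 1192 kept their direction and their side of the threshold, 20 lost the call, 32 gained one and 16 changed sign. On the median-centred scale the sign changed for Sparc with PDGF at 2 h (-0.014), Nid2 with PDGF at 24 h (-0.42), Lamc1 and Sparc with JQ1 at 2 h (0.10 and 0.28) and Col4a1 with JQ1 at 24 h (0.21). That scale called 7 genes in place of 4 for PDGF at 24 h. There 14.8% of all genes rose and 13.4% fell, in place of 37.7% and 4.85%. For JQ1 plus PDGF at 2 h against 0 h it called 4 in place of 1. In that comparison 25.6% of all genes were higher and 27.1% lower, in place of 13.2% and 33.7%. Its count was 2 without a mean trend and with only the groups compared. It was also 2 without both PDGF 2 h replicate 1 and PDGF 24 h replicate 0. For settings other than the 2 scales, shares of all genes are not reported here. Leaving out 1 library at a time gave 1 to 2 calls for PDGF at 2 h, 2 to 6 for PDGF at 24 h against 2 h, 4 to 7 for the difference between the JQ1 effects and 1 to 3 for JQ1 plus PDGF at 2 h against 0 h. Signs changed in these refits for Sparc with PDGF at 2 h (-0.074 to 0.30), Nid2 with PDGF at 24 h (-0.092 to 0.16), Sparc with JQ1 plus PDGF at 2 h against 0 h (-0.18 to 0.19), Lamc1 with JQ1 plus PDGF at 24 h against 0 h (-0.17 to 0.041), Sparc with JQ1 at 2 h (-0.21 to 0.053) and Lama5 with JQ1 plus PDGF at 24 h against 2 h (-0.24 to 0.071). The cause was not tested. No paired analysis was possible because the column names carry digits that are not tied to the letters of the sample titles. Depth is unknown, so the precision of low genes such as Lama4 rests on the spread between libraries alone.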
